A study of Mus musculus with 8 samples.

Results

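The receptors that bind the constant part of immunoglobulin G (IgG) were described in sorted mouse lung macrophages. The 6 genes were chosen by symbol from the array annotation: the activating Fc gamma receptors Fcgr1, Fcgr3 and Fcgr4, the inhibitory receptor Fcgr2b, the signalling chain Fcer1g, and Fcgrt, the neonatal Fc receptor. They are 6 of the 18782 genes tested, and each had 1 probe set on the array. KO d11 cells came from CD11cCre/PPARg fl/fl mice 11 days after birth and WT d11 cells from PPARg fl/fl mice of that age. KO d2 and WT d2 cells came from mice of the same 2 genotypes, 2 days after birth. All mice had the C57BL/6 background, and both genotypes carried the floxed Pparg allele, so the groups labelled WT differ from KO by the absence of the Cre recombinase. The CD11c promoter, which drives Cre, is active in alveolar macrophages and in dendritic cells. Each group had 2 arrays, and each array held RNA pooled from 2 mice, so that a value is the mean of a pool and n = 2 arrays per group throughout. Cells at d11 were sorted as CD45+, high in CD11c and autofluorescence and positive for Siglec-F, with high CD11b in KO and low CD11b in WT. The d2 sort took CD45+ cells with the macrophage antigen encoded by Adgre1 and much CD11c. These came from a gate intermediate for both Siglec-F and CD11b, or from one with little Siglec-F and much CD11b. The labels do not say which gate served which genotype at d2, and at both ages genotype and gate cannot be told apart.

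Fc gamma receptors let macrophages take up particles and microbes coated with IgG and respond to immune complexes. Mouse FcγRI (Fcgr1) binds single IgG molecules with high affinity, while FcγRIII (Fcgr3) and FcγRIV (Fcgr4) mainly bind complexed IgG. All of these associate with the common gamma chain (Fcer1g), whose tyrosine-based activation motif recruits the kinase Syk. FcγRIIb (Fcgr2b) carries an inhibitory motif in its own tail and recruits the phosphatase SHIP1 (Inpp5d), so that the balance of activating and inhibitory receptors sets the threshold of the cell. FcRn (Fcgrt) belongs to the family of class I MHC molecules and pairs with beta-2-microglobulin (B2m). It returns IgG from endosomes to the cell surface instead of signalling. Alveolar macrophages, which clear particles and surfactant from the air spaces, express receptors of both kinds.

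In the RefSeq annotation of mouse build GRCm38.p6, Fcgr2b (chr1:170960558-170976071), Fcgr4 (chr1:171018926-171029761) and Fcgr3 (chr1:171051169-171065915) lie side by side, and Fcer1g lies on the same chromosome (chr1:171229572-171234349). Fcgr1 (chr3:96282909-96293969) and Fcgrt (chr7:45092993-45103822) lie elsewhere. The 250 bases before the RefSeq start are printed for the 5 members whose signal differed between KO and WT at one age or both. For Fcgr3, the windows of both listed starts lie inside the gene span given above. No window before the outer end of that span was searched. The capitals mark matches, on either strand, to TTCNNNGAA (the interferon-gamma activated site), GAGGAA (a core of sites of the macrophage factor PU.1, printed as TTCCTC where it lies on the other strand) and GAAA followed after any 2 bases by GAAA (the core of the interferon-stimulated response element). No 2 of these matches overlap within a window.
Fcgr1, chr3:96293970-96294219, minus strand: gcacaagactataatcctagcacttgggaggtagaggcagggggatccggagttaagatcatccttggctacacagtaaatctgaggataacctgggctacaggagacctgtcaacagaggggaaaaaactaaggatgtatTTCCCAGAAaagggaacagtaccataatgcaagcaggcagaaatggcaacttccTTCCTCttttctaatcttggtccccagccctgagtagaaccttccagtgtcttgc
Fcgr3, chr1:171059404-171059653, minus strand, the first of 2 listed starts: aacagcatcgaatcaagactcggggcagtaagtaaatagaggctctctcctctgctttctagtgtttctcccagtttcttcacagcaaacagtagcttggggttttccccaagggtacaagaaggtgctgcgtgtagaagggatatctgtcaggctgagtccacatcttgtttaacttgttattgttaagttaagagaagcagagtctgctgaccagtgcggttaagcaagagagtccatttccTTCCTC
Fcgr4, chr1:171018676-171018925, plus strand: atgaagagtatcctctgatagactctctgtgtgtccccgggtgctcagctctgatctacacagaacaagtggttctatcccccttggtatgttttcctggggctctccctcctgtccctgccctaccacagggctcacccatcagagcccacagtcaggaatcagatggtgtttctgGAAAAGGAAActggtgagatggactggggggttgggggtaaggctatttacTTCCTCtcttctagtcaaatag
Fcgr2b, chr1:170976072-170976321, minus strand: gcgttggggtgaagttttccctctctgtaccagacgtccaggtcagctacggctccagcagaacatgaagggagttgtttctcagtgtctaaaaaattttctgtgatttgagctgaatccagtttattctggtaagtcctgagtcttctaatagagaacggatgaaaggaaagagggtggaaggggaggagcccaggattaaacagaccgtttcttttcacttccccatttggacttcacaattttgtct
Fcgrt, chr7:45103823-45104072, minus strand: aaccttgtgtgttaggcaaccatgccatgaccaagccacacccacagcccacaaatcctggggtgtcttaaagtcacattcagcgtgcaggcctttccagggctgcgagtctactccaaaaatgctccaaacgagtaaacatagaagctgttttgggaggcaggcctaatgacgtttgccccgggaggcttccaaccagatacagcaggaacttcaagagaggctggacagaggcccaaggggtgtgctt

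The windows of the 3 activating receptors each held a GAGGAA match close to the listed start. It began 55 bases before the start in Fcgr1 and 22 bases before it in Fcgr4. In Fcgr3 it began 6 bases before the first listed start and 15 bases before the second, both inside the gene span. This hexamer is common and occurred in 23.3% of 32851 mouse promoter windows of this length. Fcgr1 also held a TTCNNNGAA match beginning 109 bases before the start (7.02% of windows), and Fcgr4 a match to the paired GAAA beginning 73 bases before it (2.98% of windows), a motif that was added after the sequences had been seen. The windows of Fcgr2b, Fcgrt and Fcer1g held none of these letters, and the direct repeat bound by PPAR and RXR (AGGTCA, any 1 base, AGGTCA), found in 0.0335% of windows, was in none of the 6 genes. A match is a description of the letters and not a binding site.

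Across the 8 arrays the receptors separated into distinct patterns. Fcgr2b and, by a small margin, Fcgr3 were higher in KO than in WT at both ages. Fcgrt was lower in KO at both ages. Fcgr4 was lower in KO at d11, and Fcgr1 was higher in KO at d2, while neither passed the test at the other age. Fcer1g passed in no comparison. In bulk RNA of sorted cells, fewer cells of a type and less RNA per cell cannot be told apart.

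**Figure D1:**
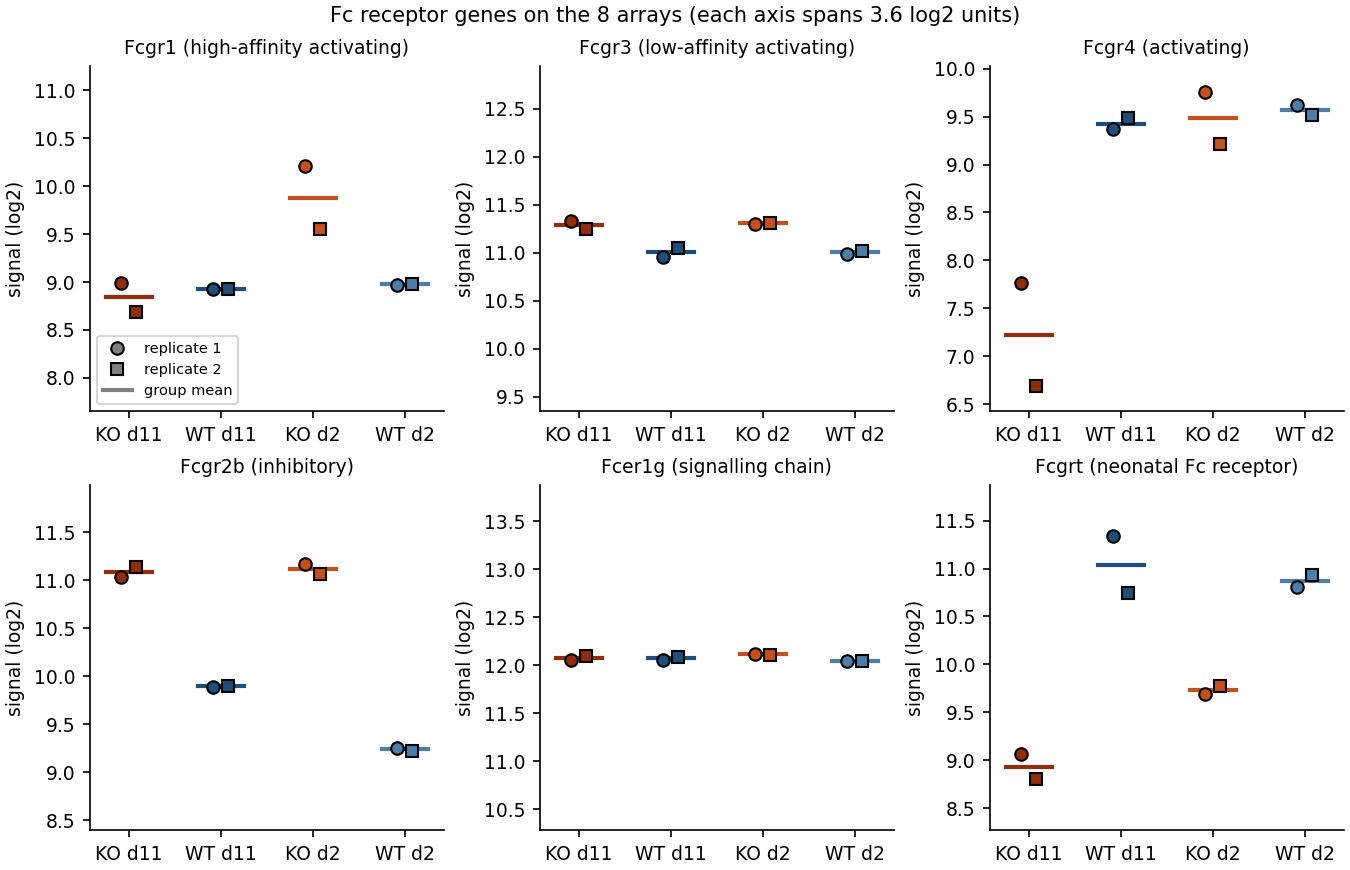
Signal (log2) of the 6 genes on each of the 8 arrays, 1 panel per gene, with groups from left to right KO d11, WT d11, KO d2 and WT d2. Circles are replicate 1, squares are replicate 2 and bars are group means. All panels span the same number of log2 units, so that differences can be compared between panels but levels cannot. Fcgr2b sits above 11 in all 4 KO pools, and Fcgr4 is low in the 2 KO d11 pools.

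Fcgr2b, the inhibitory receptor, had a log2 signal of 11.03 and 11.14 in KO d11, against 9.89 and 9.90 in WT d11. At d2 it had 11.17 and 11.07 in KO, against 9.26 and 9.22 in WT. Every KO pool was above every WT pool, and the arrays of a group lay close together. The KO minus WT difference was 1.19 ± 0.07 at d11 (SE, 2.28-fold, limma adjusted p = 3.18e-05) and 1.88 ± 0.07 at d2 (3.69-fold, adjusted p = 3.41e-06). Among the 6 genes it alone differed between ages in WT, where d11 was above d2 by 0.66 ± 0.07 (1.58-fold, adjusted p = 0.00227). In KO the age difference was -0.04 ± 0.07 (adjusted p = 0.81), with a 95% interval of -0.19 to 0.12. The genotype difference was thus smaller at d11 than at d2, by -0.69 ± 0.10 for the interaction of genotype and age (adjusted p = 0.0107). That interaction lost its call without WT d2 replicate 1 (adjusted p = 0.0533) or 2 (0.0597) and without WT d11 replicate 1 (0.0505) or 2 (0.0536), while both genotype calls held in all 14 alternative settings.

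Fcgr3, the low-affinity activating receptor in the same cluster on chromosome 1, had 11.33 and 11.25 in KO d11, against 10.96 and 11.05 in WT d11. Its signal was 11.30 and 11.31 in KO d2, against 10.99 and 11.02 in WT d2. The KO pools of both ages were above all WT pools, but by a small step. Fcgr3 thus differed between KO and WT by 0.29 ± 0.06 at d11 (1.22-fold, adjusted p = 0.0179) and 0.30 ± 0.06 at d2 (1.23-fold, adjusted p = 0.0138). Between the WT ages the difference was 0.00 ± 0.06 (95% interval -0.15 to 0.15). The call at d11 was lost without WT d11 replicate 1 (adjusted p = 0.119) or KO d11 replicate 1 (0.1), and that at d2 without WT d2 replicate 1 (0.0777), WT d2 replicate 2 (0.0619) or KO d2 replicate 2 (0.052). Fcgr2b and Fcgr3 are close paralogues, and whether their probes cross-hybridise was not tested.

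Fcgr4, the activating receptor between those genes, had 7.76 and 6.69 in KO d11, against 9.37 and 9.49 in WT d11. Both KO d11 pools were below all other arrays, and they were also the most unequal pair of any member. At d2 the signal was 9.76 and 9.22 in KO, against 9.62 and 9.52 in WT, and the groups overlapped. For Fcgr4, KO minus WT was -2.20 ± 0.31 at d11 (4.60-fold lower, adjusted p = 0.00203), a call kept in all 14 alternative settings, and -0.08 ± 0.31 at d2 (adjusted p = 0.902, 95% interval -0.81 to 0.65). Within KO, d11 was 4.79-fold below d2 (-2.26 ± 0.31, adjusted p = 0.00314), whereas within WT the difference between ages was -0.14 ± 0.31 (adjusted p = 0.85). The interaction was -2.12 ± 0.44 (adjusted p = 0.0474). It lost its call without WT d2 replicate 1 (adjusted p = 0.153) or 2 (0.162), KO d2 replicate 1 (0.103), or WT d11 replicate 1 (0.147) or 2 (0.164), with a trended and robust prior (0.17), and with all probe sets tested (0.0723).

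Fcgr1, the high-affinity receptor, had 8.99 and 8.69 in KO d11, against 8.92 and 8.93 in WT d11, and these pools overlapped. In KO d2 it reached 10.21 and 9.55, against 8.97 and 8.98 in WT d2. Both KO d2 pools lay above the other 6 arrays, the first further than the second. Its KO minus WT difference was -0.08 ± 0.19 at d11 (adjusted p = 0.847, 95% interval -0.53 to 0.36) and 0.91 ± 0.19 at d2 (1.87-fold, adjusted p = 0.013). Within KO, d11 was below d2 by -1.04 ± 0.19 (2.06-fold, adjusted p = 0.0103). The interaction of -0.99 ± 0.27 did not pass (adjusted p = 0.114), except without KO d2 replicate 2, where it was -1.32 (adjusted p = 0.00469). The d2 call was lost without WT d2 replicate 1 (0.0713) or 2 (0.0733), and the KO age call without KO d11 replicate 2 (0.0662) and with only the KO arrays fitted (0.0624).

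Fcer1g, the chain that the activating receptors share, had 12.05 and 12.10 in KO d11, against 12.06 and 12.09 in WT d11. Its signal was 12.12 and 12.11 in KO d2, against 12.04 and 12.04 in WT d2. All 8 values lay within a narrow band near the top of the scale, where the brightest probe set of each array had 13.01 and the median one 5.35. The KO minus WT difference was 0.00 ± 0.06 at d11 and 0.08 ± 0.06 at d2 (adjusted p = 1.0 and 0.444). The 95% interval of the d11 difference covered ratios of 0.911 to 1.10, and that of the d2 difference 0.959 to 1.16. Whether a signal near the top of the range understates differences was not tested.

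Fcgrt, the recycling receptor, had 9.06 and 8.80 in KO d11, against 11.34 and 10.74 in WT d11. At d2 it had 9.69 and 9.78 in KO, against 10.81 and 10.93 in WT. Each KO pool was below each WT pool, and the KO d11 pools were the lowest of all. Fcgrt differed by -2.11 ± 0.18 at d11 (4.31-fold lower, adjusted p = 0.000164) and -1.14 ± 0.18 at d2 (2.20-fold lower, adjusted p = 0.00308). Both calls held in all 14 alternative settings. Within KO, d11 was below d2 by -0.80 ± 0.18 (1.74-fold, adjusted p = 0.0216), a call lost without KO d2 replicate 1 (0.0658), KO d2 replicate 2 (0.0646) or KO d11 replicate 2 (0.121). The interaction of -0.97 ± 0.25 did not pass (adjusted p = 0.0991), except without WT d11 replicate 2, where it was -1.27 (adjusted p = 0.0212).

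**Figure D2:**
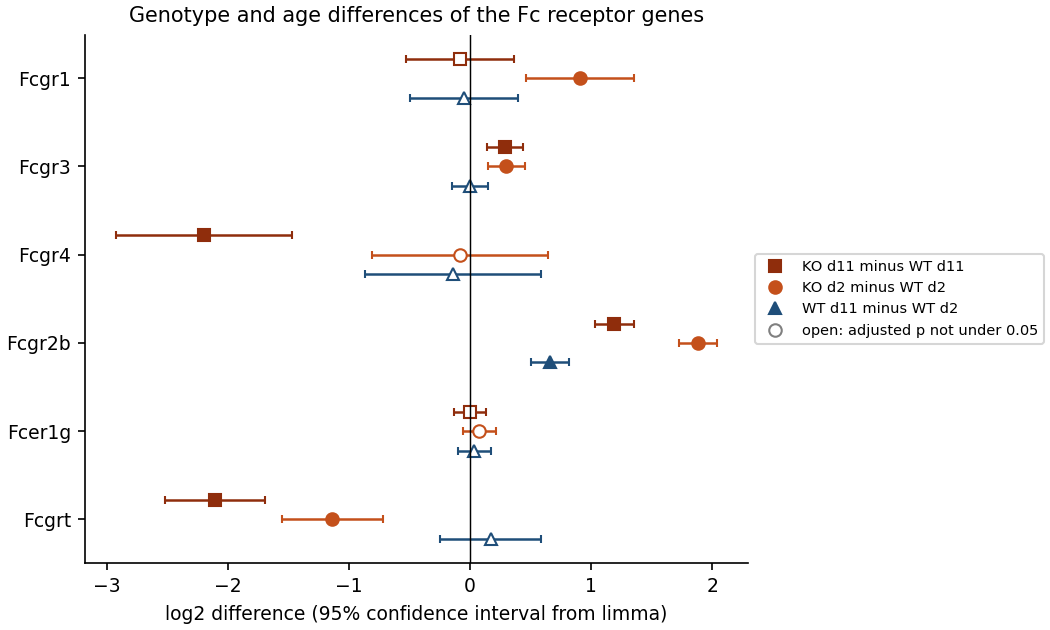
Log2 differences of the 6 genes with 95% confidence intervals from limma, for KO d11 minus WT d11 (squares), KO d2 minus WT d2 (circles) and WT d11 minus WT d2 (triangles). Filled symbols passed at an adjusted p under 0.05. Fcgr2b lies to the right and Fcgrt to the left at both ages, Fcgr4 lies to the left at d11 with a difference of -2.20, and the intervals of Fcer1g enclose 0.

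Counted together, 4 of the 6 genes passed between KO d11 and WT d11, 2 higher and 2 lower, where 18.6% of all genes passed (9.34% higher and 9.29% lower). Between KO d2 and WT d2, 4 of 6 passed, 3 higher and 1 lower, where 20.1% of all genes passed (8.86% higher and 11.2% lower). Between WT d11 and WT d2, 1 of 6 passed, higher at d11, where 5.3% of all genes passed (2.81% higher and 2.49% lower). Between KO d11 and KO d2, 3 of 6 passed, all lower at d11, where 15.5% of all genes passed (8.81% higher and 6.71% lower). The interaction passed for 2 of 6, both negative, with 3.27% of all genes (1.29% positive and 1.99% negative). The median difference over the 6 genes was -0.04 at d11 and 0.19 at d2, beside -0.002 and -0.03 over all genes, since rises and falls offset each other. The pairs of groups that share neither age nor genotype gave 4 of 6 for KO d11 against WT d2, 2 higher and 2 lower, where 25.6% of all genes passed (12.5% higher and 13.1% lower). They gave 4 of 6 for KO d2 against WT d11, 3 higher and 1 lower, where 22.3% passed (9.57% higher and 12.8% lower).

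Ranked by group mean, Fcgr1 was highest in KO d2, and its order WT d2, WT d11 and KO d11 below that had no neighbours that differed by the test. Fcgr3 had the 2 KO groups above the 2 WT groups, with no call within either pair. For Fcgr4 the order was WT d2, KO d2 and WT d11, with no call between neighbours, and then KO d11, which was lower. Fcgr2b ran from KO d2 and KO d11, which did not differ by the test, to WT d11 and then WT d2, each step passing. Fcgrt had WT d11 and WT d2 on top with no call between them, then KO d2, then KO d11, both steps passing. Fcer1g had no neighbouring groups that differed by the test.

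The neighbours of the chromosome 1 cluster did not move as a block. The order on the array was Dusp12, Fcrlb, Fcrla, Fcgr2b, Fcgr4, Fcgr3, Cfap126, Sdhc and Pcp4l1. Fcrlb, an Fc receptor-like gene, was higher in KO by 1.81 ± 0.23 at d11 (adjusted p = 0.00114) and 1.73 ± 0.23 at d2 (adjusted p = 0.00138). Fcrla, between it and Fcgr2b, had KO minus WT differences of 0.01 at d11 (adjusted p = 0.976) and 0.30 at d2 (adjusted p = 0.278), and Dusp12, Cfap126, Sdhc and Pcp4l1 were also not called between genotypes. Around Fcer1g, Tomm40l, Apoa2 and Adamts4 were not called, and the mitochondrial haem enzyme gene Ppox was lower in KO at d2 by -0.45 (adjusted p = 0.00274), as was the galactosyltransferase gene B4galt3 by -0.31 (adjusted p = 0.0474). Next to Fcgrt on chromosome 7, Rcn3, a calcium-binding protein of the endoplasmic reticulum, was lower in KO by -1.61 at d11 (adjusted p = 0.000575) and -0.90 at d2 (adjusted p = 0.00962). On its other side, Snord35b was lower in KO at d2 (-0.44, adjusted p = 0.0466), and Rpl13a, a ribosomal protein gene, was higher at d11 (0.36, adjusted p = 0.0357). Beside Fcgr1 on chromosome 3, the histone gene H2bc18 was lower in KO by -0.99 at d11 (adjusted p = 0.000625) and -0.82 at d2 (adjusted p = 0.00155). The histone gene H4c14 was lower by -0.64 at both ages (adjusted p = 0.0138 at d11 and 0.0132 at d2), and Terc, the telomerase RNA, was lower at d11 (-0.52, adjusted p = 0.0052).

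**Figure D3:**
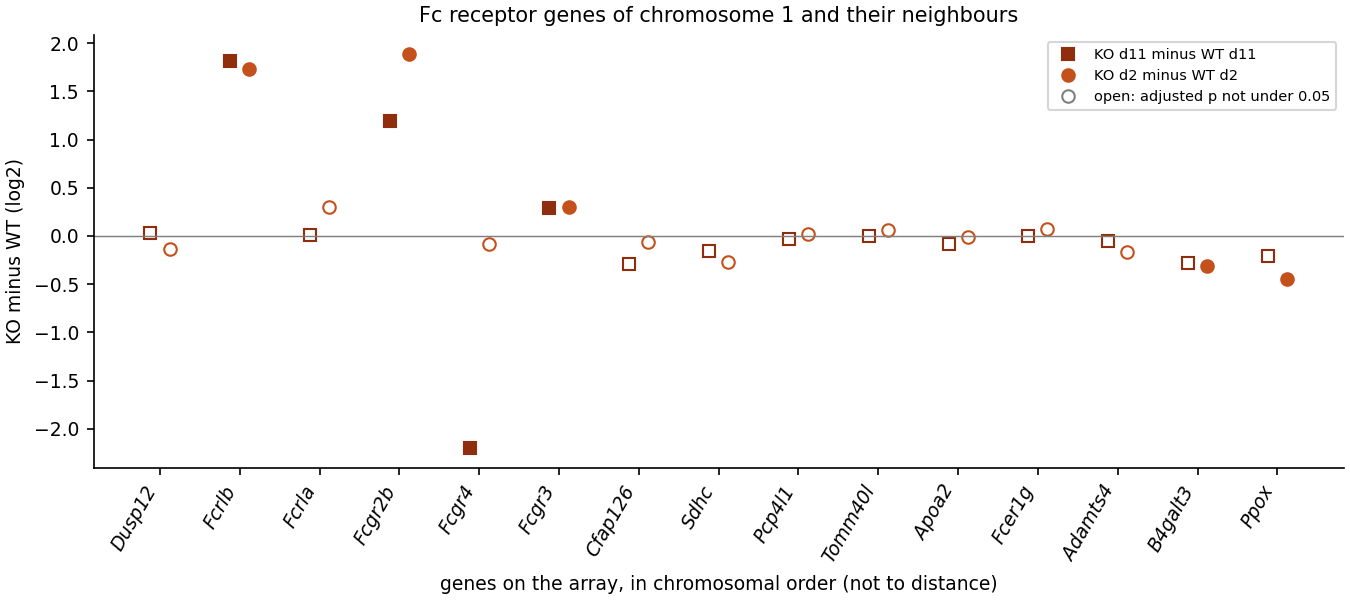
KO minus WT differences (log2) of the chromosome 1 members and their neighbours on the array, in chromosomal order and not to distance, for d11 (squares) and d2 (circles). Filled symbols passed at an adjusted p under 0.05. Fcrlb and Fcgr2b are high at both ages, Fcgr4 is low at d11, and Fcgr3 between Fcgr4 and Cfap126 is slightly high.

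Genes with the profile most like that of each member were taken as those with the smallest root mean square difference over the 8 arrays, each profile centred on its own mean, among 16444 genes with a proper symbol. For Fcgr2b these were Hgf (0.12 log2 units), the lectin receptor Clec4d (0.15) and Rgs1 (0.16). Fcgr4 had H2bc3 (0.36), Treml4 (0.38) and Lbr (0.43). This measure grows with the range of a gene, which was the widest for Fcgr4, so it does not rank the members by how well they were matched. Treml4 differed between KO and WT by -2.37 at d11 and 0.05 at d2 (adjusted p = 2.63e-05 and 0.865). Fcgrt lay nearest to the cell division genes Kif23 (0.16), Esco2 (0.24) and Anln (0.24). Fcgr1 lay nearest to Klrk1 (0.10), Inpp5j (0.10) and S1pr1 (0.12), and Fcgr3 to Ttc7, Setd3 and Mtmr6 (0.04 each). The flat profile of Fcer1g was matched by other flat genes, Fabp2, Rps6 and Adra1b. The measure does not compare levels. Klrk1, Fabp2 and Adra1b lay below the array median of 5.35 on all arrays, and Inpp5j and S1pr1 lay below it outside KO d2.

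Among other receptors that use the Fcer1g chain, 5 of 12 listed genes were measured. Of these, 3 were higher in KO at d11 and the same number at d2, and none was lower. They were the C-type lectin receptors of myeloid cells. Over all genes, 9.34% were higher in KO at d11 and 8.86% at d2, but this list holds only 5 measured genes. Clec4d was higher by 1.42 ± 0.13 at d11 and 1.68 ± 0.13 at d2 (adjusted p = 0.000255 and 0.000117). Clec4e, which encodes Mincle, was higher by 0.61 ± 0.09 and 0.92 ± 0.09 (adjusted p = 0.00292 and 0.000362), and Clec4n, which encodes dectin-2, by 0.42 ± 0.08 and 0.68 ± 0.08 (adjusted p = 0.00967 and 0.000826). The d11 call of Clec4n was lost without WT d11 replicate 1 (0.0759) or KO d11 replicate 2 (0.0628). Of the partner chains, 5 were measured, and 3 of these exceeded the array median of 5.35 on at least 1 array. None of the 5 passed between genotypes or between ages by limma, and at an unadjusted p under 0.05 the count was also 0. Of these, Tyrobp, which encodes DAP12, had 11.92 and 11.85 in KO d11, 11.89 and 11.84 in WT d11, 11.78 and 11.80 in KO d2, and 11.70 and 11.76 in WT d2. B2m, the partner of FcRn, had 12.10 and 12.06 in KO d11, 12.14 and 12.14 in WT d11, 12.21 and 12.04 in KO d2, and 11.99 and 12.02 in WT d2. Among 12 measured genes of other immunoglobulin receptors, Fcrlb passed at d11, and Fcrlb and Fcrls (1.79 ± 0.15, adjusted p = 0.000149) passed at d2, all higher in KO. These are 8.33% at d11 and 16.7% at d2, where 9.34% and 8.86% of all genes were higher. Only 4 of the 12 exceeded the array median of 5.35 on any array.

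Of 46 measured genes of the activating signal, 13 were higher and 3 lower in KO at d11, and 11 were higher and 5 lower at d2. These are 28.3% higher and 6.52% lower at d11, where all genes had 9.34% and 9.29%, and 23.9% higher and 10.9% lower at d2, where all genes had 8.86% and 11.2%. The list medians were 0.03 and 0.05, beside -0.002 and -0.03 over all genes. Lat2, an adaptor related to LAT, had 8.98 and 9.20 in KO d11, against 6.33 and 6.62 in WT d11, and 9.92 and 9.70 in KO d2, against 6.69 and 6.22 in WT d2. It was 6.12-fold higher in KO at d11 and 10.2-fold higher at d2 (adjusted p = 5.1e-05 and 1.59e-05). The kinase Src was higher by 1.62 ± 0.14 and 2.70 ± 0.14, the adaptor Blnk by 2.14 ± 0.31 at d11 (adjusted p = 0.00211) and protein kinase C beta (Prkcb) by 2.61 ± 0.32 at d2 (adjusted p = 0.000967). Lat itself was lower in KO by -1.16 ± 0.23 at d11 and -1.72 ± 0.23 at d2 (adjusted p = 0.01 and 0.0014), and the exchange factor Vav2 by -0.57 ± 0.09 and -0.69 ± 0.09. The d11 call of Lat was lost without WT d11 replicate 1 (0.0646) or 2 (0.0563). Syk, named here for its role and outside the rule for named genes, had 10.12 and 10.01 in KO d11, 10.36 and 10.23 in WT d11, 10.33 and 10.33 in KO d2, and 10.29 and 10.28 in WT d2, and it was not called between genotypes (adjusted p = 0.062 at d11). The list counts without single arrays, an alternative chosen after seeing the data, were 8 higher at d11 without either WT d11 array, 1 lower at d11 without WT d11 replicate 1, 7 higher and 2 lower at d2 without WT d2 replicate 2, and 3 lower at d2 without WT d2 replicate 1 or KO d2 replicate 1.

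Of 17 measured genes of the inhibitory signal, 4 were higher and 3 lower in KO at d11, and 3 were higher and 3 lower at d2, with list medians of -0.04 and 0.06. These are 23.5% higher and 17.6% lower at d11, where all genes had 9.34% and 9.29%. At d2 they are 17.6% in each direction, where all genes had 8.86% higher and 11.2% lower. Inpp5d, the phosphatase that FcγRIIb recruits, was higher in KO by 0.48 ± 0.06 at d2 (adjusted p = 0.000943). Its d11 value, named outside the rule for named genes, was 0.30 ± 0.06 (adjusted p = 0.00983). The adaptor Dok2 was higher by 1.13 ± 0.10 at d11 and 0.71 ± 0.10 at d2, and the phosphatase Ptpn22 by 0.37 ± 0.07 and 1.28 ± 0.07. Pag1, which anchors the kinase Csk at the membrane, was lower by -0.81 ± 0.08 and -0.98 ± 0.08 (adjusted p = 0.000304 and 0.000124), and Csk was lower at d11 by -0.68 ± 0.07 (adjusted p = 0.000405). The d11 call of Ptpn22 was lost without WT d11 replicate 1 (0.0595). The lower count at d2 was 1 without WT d2 replicate 1, WT d2 replicate 2 or KO d2 replicate 1, and the higher count at d11 was 1 without WT d11 replicate 1.

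**Figure D4:**
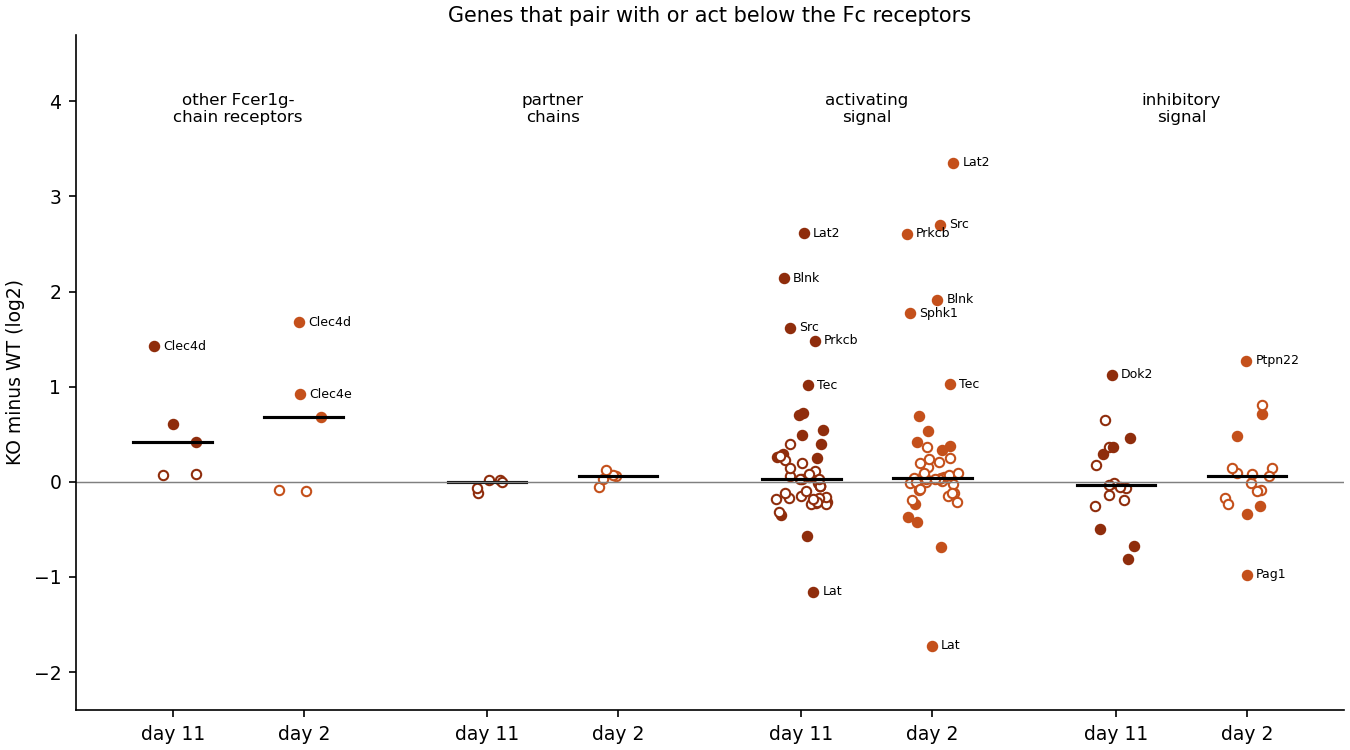
KO minus WT differences (log2) of measured genes in 4 lists, namely other receptors that use the Fcer1g chain, partner chains, the activating signal and the inhibitory signal, at d11 and d2. Each dot is a gene, filled dots passed at an adjusted p under 0.05, and bars are list medians. The medians of the activating signal lie at 0.03 and 0.05, with Lat2 far above and Lat below.

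Genes of the interferon response differed most between replicates of the same group at d2. The list median of 31 measured genes was 6.00 and 5.73 in KO d11, against 5.47 and 5.43 in WT d11. It was 9.28 and 6.37 in KO d2, against 6.00 and 5.71 in WT d2. KO d2 replicate 1, which is the array with the highest Fcgr1, had the highest list median. All 31 genes were higher on it than on KO d2 replicate 2, 26 of them by over 1 log2 unit. In the other groups, replicate 1 was higher for 26 of 31 genes in WT d2, 26 of 31 in KO d11 and 13 of 31 in WT d11. Genes that differed by over 1 log2 unit numbered 1 of 31 in KO d11, 0 of 31 in WT d11 and 6 of 31 in WT d2. Among these 6, named after their values were seen, Cxcl9 had 8.42 and 4.55 in WT d2 and Gbp2 had 10.05 and 7.41. The median KO minus WT difference of the list was 0.12 at d11 and 1.44 at d2. Of the 31 genes, 1 was higher in KO at d11 and 4 at d2 (21 at an unadjusted p under 0.05), and none was lower. These are 3.23% and 12.9% of the list, where 9.34% and 8.86% of all genes were higher. At d2 the count was 29 without KO d2 replicate 2, 5 without KO d2 replicate 1, 1 without WT d2 replicate 1, 0 without WT d2 replicate 2 and 2 without any single d11 array. At d11 it was 0 without any single d11 array and 3 without either KO d2 array. Fcgr1 was higher in KO d2 than in WT d2 by 0.58 without KO d2 replicate 1 (adjusted p = 0.0175) and by 1.23 without KO d2 replicate 2 (adjusted p = 0.000484), with the lone KO d2 array assumed to vary like the other groups. Fcgr4 was also higher in KO d2 replicate 1 than in replicate 2, with 9.76 and 9.22, and Fcgr2b had 11.17 and 11.07. The part of the interferon genes in these differences was not tested.

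**Figure D5:**
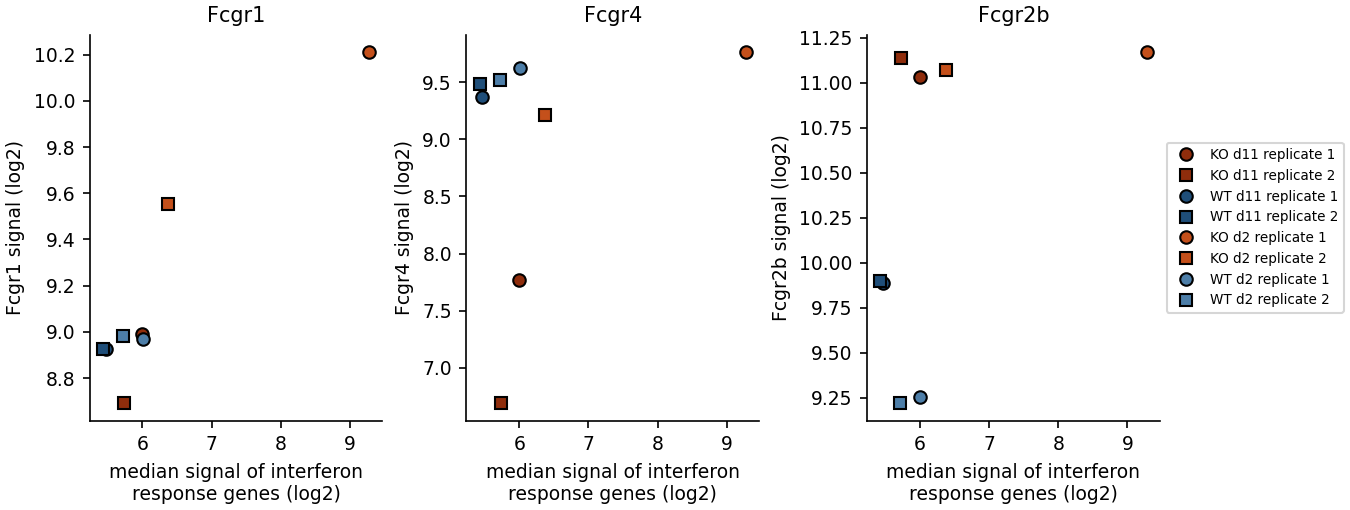
Signal (log2) of Fcgr1, Fcgr4 and Fcgr2b against the median signal (log2) of 31 interferon response genes, 1 point per array. KO d2 replicate 1 lies far to the right at 9.28 and is the highest array for Fcgr1. All WT arrays lie between 5.43 and 6.00, and no WT array reaches the positions of the KO d2 arrays.

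Markers of cell types that carry these receptors also differed between the groups, though not in every list beyond the share over all genes. Over all genes, 9.34% were higher and 9.29% lower in KO at d11. At d2, 8.86% of all genes were higher and 11.2% lower. Of 12 measured monocyte markers, 6 were higher in KO at d11 and none lower, and 9 were higher and 1 lower at d2. Their median signal was 8.001 to 8.036 in KO d11, 6.20 to 6.23 in WT d11, 10.21 to 10.47 in KO d2 and 7.36 to 7.53 in WT d2. Of 14 alveolar macrophage markers, 1 was higher and 9 lower in KO at d11 (7.14% and 64.3%). At d2, 1 was higher and 11 lower (7.14% and 78.6%). Their medians were 10.56 to 10.70 in KO d11, 11.27 to 11.31 in WT d11, 8.50 to 8.59 in KO d2 and 10.56 to 10.59 in WT d2. The marker higher at both ages was Itgax, which encodes CD11c. Itgax and Siglecf here, and Itgam (CD11b) among the monocyte markers, encode antigens of the sort, and Pparg here is the targeted gene. The counts include these genes, which are not independent of the gates or the knockout. Chil3 is in both the monocyte and the alveolar macrophage list, and it was the monocyte marker lower in KO at d2 (-2.20, limma adjusted p = 0.00329). Of 13 neutrophil markers, 2 were higher and 2 lower in KO at d11 (15.4% each), and 9 higher and 1 lower at d2 (69.2% and 7.69%). Their medians were 4.97 to 5.02 in KO d11, 4.94 to 5.04 in WT d11, 6.29 to 6.34 in KO d2 and 5.04 to 5.08 in WT d2. Dendritic cell markers, 13 in number, had 3 higher and 1 lower in KO at d11 (23.1% and 7.69%) and 9 higher at d2 (69.2%). Their medians were 5.33 to 5.73 in KO d11, 5.81 to 5.82 in WT d11, 7.02 to 7.24 in KO d2 and 4.99 to 5.10 in WT d2. Of 15 NK and T cell markers, 2 were higher in KO at d11 (13.3%) and 4 at d2 (26.7%). Of 12 mast cell and basophil markers, 2 were higher at d2 (16.7%). Of 10 B cell markers, 1 was higher and 2 lower at d11. No other marker of these lists or of the 5 eosinophil markers was called by limma, and at an unadjusted p under 0.05 the eosinophil count was 1 at d2 and 0 at d11. The medians of these 4 lists ran from 3.67 to 4.73, below the array median of 5.35, though 2 markers in each of the first 3 exceeded that median on at least 1 array. The array values have no 0, so no marker can be called absent, and the part of these cell types in the receptor differences was not tested.

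The targeted gene Pparg had 11.32 and 11.36 in KO d11, 11.18 and 11.13 in WT d11, 10.55 and 10.74 in KO d2, and 10.89 and 11.01 in WT d2. The KO minus WT difference was 0.19 ± 0.08 at d11 (adjusted p = 0.183) and -0.31 ± 0.08 at d2 (adjusted p = 0.0346). The labels do not place its probes relative to the deleted part, so the signal does not check the labels. Arrays of the same group correlated across genes at 0.994 to 0.998, and arrays of different groups at 0.968 to 0.994, with genes not being independent replicates.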

How the data were processed

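Gene expression was measured on 8 Affymetrix arrays, 2 in each of 4 groups. The deposited table holds log2 values of 28874 probe sets, which the authors computed with RMA under R version 2.15.2, as the submitters' processing notes state. RMA gives all arrays nearly 1 distribution, so a shift of all genes cannot be seen. Probe sets were named from the platform annotation, where 21159 had 1 symbol, 1881 several and 5834 none. Of the named ones, 21129 matched RefSeq by Entrez identifier and no symbol changed. The probe set with the highest mean was used where a gene had several (1368 genes), which left 18782 genes and 1 probe set for each of the 6 members. The number of arrays limits the precision. The p-values set a group difference against the spread between pools, which was shared over the 4 groups and moderated toward a value from all genes.

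Contrasts were tested with limma (version 3.58.1, R 4.3.3) in a model of 4 group means on the 8 arrays (4 residual and 3.77 prior degrees of freedom). The p-values of limma were adjusted by Benjamini-Hochberg over the 18782 genes of each contrast, with calls at an adjusted p below 0.05. SE values come from the model. The interaction is KO minus WT at d11 less KO minus WT at d2. The fit was tested on simulated data. Figures used Python 3.11.15 with matplotlib 3.10.9.

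The members and the 14 gene lists (210 of 238 entries measured) were chosen with earlier results of these data known. Genes named are the members, up to 3 rises and 3 falls per list and contrast among called genes whose arrays did not overlap (no overlap condition for the interaction), the 3 nearest profiles of each member, and the 3 neighbours on each side in RefSeq order that are on the array. Syk, Tyrobp, B2m, Pparg and Inpp5d at d11 were added for their role after values had been seen. Promoter windows come from RefSeq (GRCm38.p6), and all 6 members matched. Neither the build of the array annotation nor hybridisation dates are given, and protein and probe sequences were not used here. The alternatives, 14 per contrast, were a replicate block, leaving out each array, a trended and robust prior, only the groups compared, genes above the median, all probe sets, and the mean of a gene's probe sets.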

Additional observations from a re-analysis of the deposited data

Results flagged for a closer look

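In 7 genes among the members and the named genes of the receptor and signalling lists, the KO minus WT difference itself differed between d11 and d2 by limma's interaction test. Among the receptors these were Fcgr4, with an interaction of -2.12 ± 0.44 (adjusted p = 0.0474), and Fcgr2b, with -0.69 ± 0.10 (adjusted p = 0.0107). Fcgr4 was lower in KO at d11 and not called at d2, while Fcgr2b was higher in KO at both ages and more so at d2. In the signalling lists, Csk, the kinase that restrains Src family kinases, had -0.59 ± 0.10 (adjusted p = 0.0229) and the phosphatase Ptpn22 had -0.91 ± 0.10 (adjusted p = 0.00356). Sphk1, a sphingosine kinase, had -1.38 ± 0.24 (adjusted p = 0.0251) and Src had -1.08 ± 0.20 (adjusted p = 0.0312). The Fc receptor-like gene Fcrls had -1.44 ± 0.21 (adjusted p = 0.0135). Genes other than the members were named because they were called, so the number 7 is not a share of any set. Called interactions, all negative, numbered 2 of 46 activating signal genes (4.35%), 2 of 17 inhibitory signal genes (11.8%) and 1 of 12 other immunoglobulin receptors (8.33%). The marker lists also held called interactions, 1 positive and 4 negative of 12 monocyte genes, 7 negative of 13 neutrophil genes, 1 positive and 7 negative of 13 dendritic cell genes, 1 negative of 14 alveolar macrophage genes and 1 negative of 10 B cell genes. Over all genes, 1.29% had a positive and 1.99% a negative called interaction. The Fcgr4 call was lost in 7 of 14 alternative settings (adjusted p up to 0.17) and the Fcgr2b call in 4 (up to 0.0597). The call for Ptpn22 held in all 14 alternative settings. That for Fcrls was lost without WT d2 replicate 1 (0.0653) or WT d11 replicate 2 (0.0642). Those for Csk, Sphk1 and Src were each lost in 6 settings that leave out 1 array, with adjusted p up to 0.102, 0.1 and 0.129.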

How the results depend on the processing

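Of 588 member results under an alternative setting, 547 were counted as keeping their direction and side of the threshold. Of the rest, 29 lost a call, 2 gained one and 10 changed sign without a call in either fit. A difference of exactly 0 with all arrays has no direction, and its alternatives were counted as kept. This held for Fcgr3 between WT ages (-0.045 to 0.045) and Fcer1g at d11 (-0.025 to 0.025). The sign changes came from leaving out 1 array. They were Fcgr4 at d2 (KO minus WT -0.35 to 0.19 over the 8 fits), Fcgr1 at d11 (-0.234 to 0.0655), Fcgrt between WT ages (-0.13 to 0.47), Fcgr2b between KO ages (-0.09 to 0.02), Fcgr3 between KO ages (-0.055 to 0.025), Fcgr3 in the interaction (-0.06 to 0.03), Fcgr1 in KO d11 minus WT d2 (-0.285 to 0.0145) and Fcgr4 in KO d2 minus WT d11 (-0.21 to 0.33). Members called without 1 array numbered 3 to 4 for KO against WT at d11, 2 to 4 at d2, 1 to 1 between WT ages, 1 to 3 between KO ages, 0 to 3 for the interaction, 3 to 4 for KO d11 against WT d2 and 2 to 4 for KO d2 against WT d11. The count for the interaction was 1 with a trended and robust prior and 1 with all probe sets. All genes called without 1 array numbered 2059 to 3760, 2223 to 3605, 233 to 1292, 1541 to 2985, 197 to 942, 2948 to 5063 and 2569 to 4086 in the same order, beside 3500, 3774, 996, 2915, 615, 4813 and 4194 with all arrays. With only the groups compared, the count was 1581 between WT ages and 1466 between KO ages.

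The labels give replicate numbers, but nothing says that a number marks a shared litter or day. Deviations of same-numbered arrays correlated at -0.08 to 0.25 over the 6 pairs of groups, so the numbers were not taken to pair the samples. With the replicate block, the counts of members called were 4, 4, 1, 3, 2, 4 and 4 in that order, as without it, and all genes called numbered 3415, 3692, 975, 2823, 558, 4672 and 4134. With 1 array left out, the lone array of its group is assumed to vary like the other groups. The causes of these changes were not tested.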
